A study of Homo sapiens with 3 samples.

Results

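The Notch receptors, their ligands and the target HES1 were followed in chambered cardiac organoids (CCOs), as 10 of the 32738 genes listed in the deposited single-cell count table. The genes were taken by name: the receptors NOTCH1, NOTCH2, NOTCH3 and NOTCH4, the ligands DLL1, DLL3, DLL4, JAG1 and JAG2, and the target gene HES1. All 10 had a unique molecular identifier (UMI) in at least 10 cell barcodes, the minimum used here for a gene. CCOs were made from the human embryonic stem cell line H7, with no genetic change and no treatment arm named for these libraries. Cardiac differentiation was driven with the GSK inhibitor CHIR99021 and then the Wnt inhibitor IWP-2, and the cells were aggregated in Matrigel in cardio-sphere growth medium (CGM). The groups are CCOs at D8, D14 and D21, with 1 Chromium 3′ library each. Organoids were moved at D14 from CGM to RPMI medium with B27 in spinner flasks, so the D21 library also differs in medium and culture vessel. Day, medium and library cannot be told apart, there is no replicate error, and no test between days was possible. All libraries come from 1 cell line, and how many organoids entered a library is not given in the sources used here.

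Notch receptors are membrane proteins that are activated by ligands on neighbouring cells. Ligand pulling exposes the receptor to cleavage by ADAM proteases and then by the gamma-secretase complex, and the freed intracellular part enters the nucleus, where it works with the DNA-binding protein RBPJ and the MAML coactivators to switch on target genes, among them HES and HEY genes. In the developing heart the pathway is known for its part in endothelial and endocardial cells, in the wall of blood vessels, and in the growth of the ventricular wall. Transcript levels as measured here report neither receptor cleavage nor ligand on the surface.

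Filters on detected genes (over 2000, below 7500) and on mitochondrial UMIs (below 10%) kept 2657, 3585 and 1946 cells of D8, D14 and D21. These cells held 46767738, 50247286 and 30898727 UMIs, with a median per cell of 15316, 12282 and 14106. At D21, 1982 barcodes failed the mitochondrial limit alone, against 11 at D8 and 204 at D14. Between 9 and 14 barcode sequences of kept cells were shared by any pair of libraries. Cells were clustered without the Notch genes, and 12 of 19 clusters were named from marker lists. CM-like cells (cardiomyocyte markers) numbered 482, 978 and 539 on the 3 days, and endothelial-like cells, all from 1 cluster with all 8 endothelial markers raised, numbered 48, 53 and 38. Dividing cells numbered 348, 454 and 173. Early endoderm-like cells were present at D8 (256) and D14 (208), and fibroblast-like (827) and hepatic endoderm-like (306) cells at D21. No cluster was named mural or epicardial, and 3468 cells lay in clusters without a name, which are called by number below. Of the 19 clusters, 15 drew at least 90% of their cells from 1 library.

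The start regions of HES1 and HEY2 are shown because these targets took opposite courses in CM-like cells from D14 to D21, as described with those cells. They are from RefSeq on the build GRCh38.p14, which is not the hg19 build named in the submitters' processing notes, and run from 250 bases before to 50 bases after the start. Each is written 5′ to 3′ along the gene's own strand, and capitals mark TGGGAA, the core letters known for RBPJ sites, or its reverse complement TTCCCA. The HES1 region is chr3:194135898-194136197 on the plus strand, with forward matches that begin at -84 and -70 from the start, 14 bases apart. The HEY2 region is chr6:125749382-125749681 on the plus strand, with a reverse match at -213 and a forward match at -3.
HES1: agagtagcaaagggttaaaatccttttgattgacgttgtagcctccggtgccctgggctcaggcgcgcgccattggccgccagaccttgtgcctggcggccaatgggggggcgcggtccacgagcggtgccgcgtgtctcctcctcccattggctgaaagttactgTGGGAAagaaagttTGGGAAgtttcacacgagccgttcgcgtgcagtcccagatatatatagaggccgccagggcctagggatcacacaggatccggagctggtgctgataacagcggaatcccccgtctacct
HEY2: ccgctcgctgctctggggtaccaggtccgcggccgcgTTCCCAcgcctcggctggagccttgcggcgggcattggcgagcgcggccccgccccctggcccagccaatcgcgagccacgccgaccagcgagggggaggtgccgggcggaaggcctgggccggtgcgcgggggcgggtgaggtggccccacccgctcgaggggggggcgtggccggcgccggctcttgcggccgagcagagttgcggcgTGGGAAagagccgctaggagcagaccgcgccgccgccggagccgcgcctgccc
At least 1 match was found in 24.0% of 35116 RefSeq regions of the same length, and 2 or more in 3.80%. The other matched members, NOTCH1, NOTCH2, NOTCH3, NOTCH4, DLL4, JAG1 and JAG2, had no match in this window. Of the listed targets, HES5 and HEYL had 2 matches, HES4 had 1 and NRARP had 0. Entries were matched by symbol for 8 of the 10 members and 5 of the 6 targets, without DLL1, DLL3 and HEY1. A match to these letters is a description of sequence and not of binding, and a window without one says nothing of RBPJ.

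A level is given as UMIs of a gene per 1000000 UMIs (CPM), summed over the cells of a group, with a 95% Poisson interval in parentheses. These intervals cover counting error only. A gene is said to have passed 2-fold between groups when the ratio of CPM was 2 or more, its exact 95% interval excluded 1 and the groups together held at least 20 UMIs. Libraries of this kind count the 3′ ends of transcripts, so each gene was compared with itself across groups and never with another gene.

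Of the ligands, JAG1 fell on each step over all cells, DLL1 and DLL3 fell from D14 to D21, and JAG2 rose from D8 to D14. HES1, a basic helix-loop-helix repressor that is a classical Notch target, was lower at D21 than at D14. None of NOTCH1, NOTCH2, NOTCH3 and NOTCH4 passed 2-fold over all cells on either step, although NOTCH3 and NOTCH4 did from D14 to D21 with a mitochondrial limit of 20% or none. In bulk over all cells, fewer cells of a type and less RNA per cell cannot be told apart, and the same genes are given by cell class further on.

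JAG1, a ligand of the Serrate family, was at 151.6 CPM (148.1 to 155.2) at D8, 67.8 (65.5 to 70.1) at D14 and 19.4 (17.8 to 21.0) at D21. No intervals overlapped, and the level fell 2.24-fold and then 3.50-fold. JAG2, the other member of that family, was at 1.65 CPM (1.30 to 2.06), 6.21 (5.54 to 6.94) and 3.75 (3.10 to 4.50), a rise of 3.77-fold followed by a decline of 1.65-fold that passed 2-fold only with a mitochondrial limit of 5% (log2 ratio -1.32). DLL1, a ligand known from early mesoderm and somites, was at 2.59, 1.61 and 0.324 CPM, with only 10 UMIs in the whole D21 library. DLL3, a divergent family member known to act inside the cell on Notch rather than on neighbours, was at 15.4, 12.1 and 2.65 CPM. Between D14 and D21, DLL1 fell 4.98-fold (2.57 to 10.8) and DLL3 4.55-fold (3.61 to 5.81). DLL4, the main ligand of arterial endothelium, rested on 48, 22 and 29 UMIs, or 1.03 CPM (0.757 to 1.36), 0.438 (0.274 to 0.663) and 0.939 (0.629 to 1.35). DLL4 passed 2-fold down and then up over all cells, but the rise no longer did so in 5 of 11 alternative settings, among them each other mitochondrial limit. The fall no longer did so with each cell thinned to 4000 UMIs, and its log2 ratio ran up to -0.07 over the settings.

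HES1 stood at 165.6 CPM (162.0 to 169.4) at D8, 224.4 (220.3 to 228.6) at D14 and 100.5 (97.0 to 104.1) at D21. The fall from D14 to D21 was 2.23-fold (2.15 to 2.33). The median log2 ratio of all genes tested was -0.28 on that step, and with either scaling that moved this median towards 0 (TMM or median-of-ratios factors) HES1 stayed lower but no longer passed 2-fold, with log2 ratios up to -0.87. NOTCH2 was at 22.5, 29 and 32.0 CPM, the only receptor whose level was highest at D21, although with thinned cells its D21 level was below that of D14 (log2 ratio -0.08). NOTCH1 (12.9, 17.1 and 10.9 CPM), NOTCH3 (15.2, 21.5 and 13.1) and NOTCH4 (2.82, 3.74 and 2.75) were each highest at D14, although with a mitochondrial limit of 5% NOTCH4 was higher at D21 (log2 ratio 0.16).

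From D8 to D14, 1 of the 10 members passed 2-fold upwards (JAG2) and 2 downwards (JAG1 and DLL4), where 13.2% and 4.61% of the 17709 genes tested did so. On the step to D21, 1 passed upwards (DLL4) and 4 downwards (HES1, DLL1, JAG1 and DLL3), beside 8.36% and 19.5% of 17334 genes. The members' median log2 ratio was 0.39 on the first step, beside 0.12 for all genes, and -0.72 on the second, beside -0.28.

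**Figure D1:**
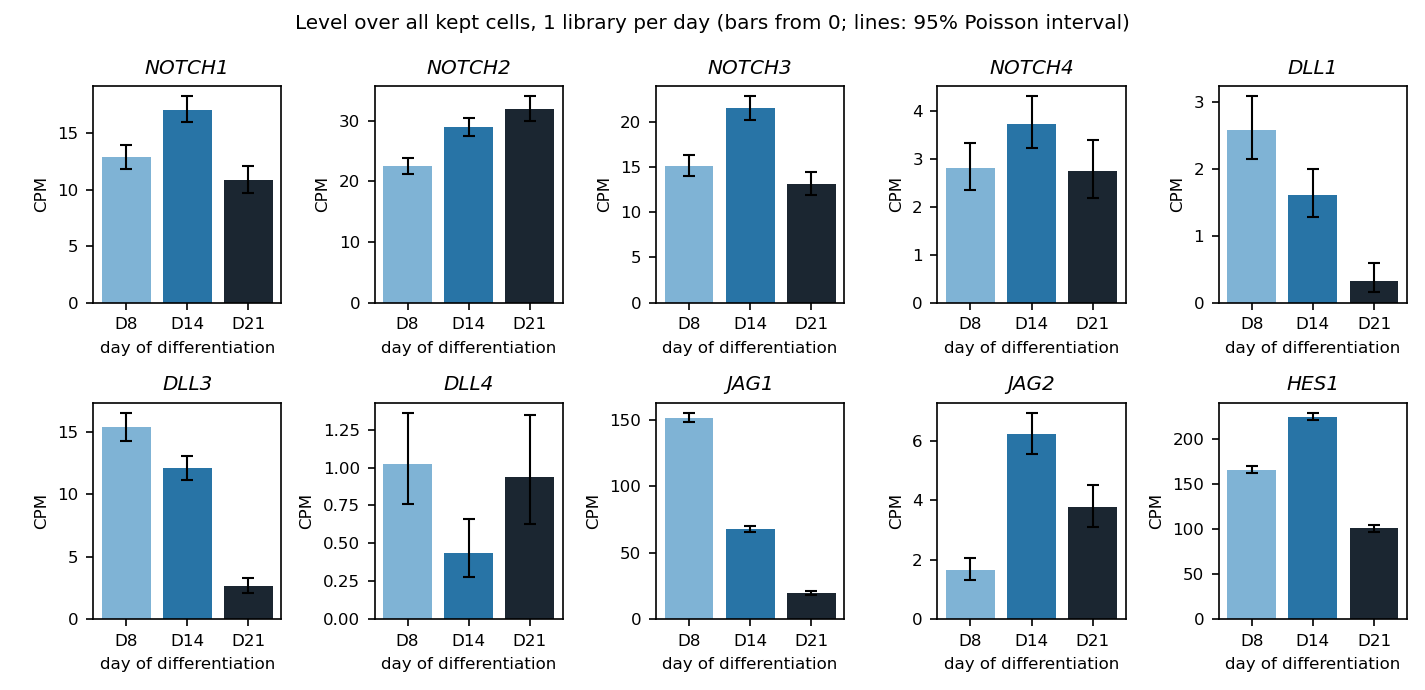
Level of each member over all kept cells at D8, D14 and D21, in CPM (bars, from 0, each panel with its own scale), with the 95% Poisson interval (lines). The plot shows JAG1 falling from 151.6 to 19.4 CPM, HES1 highest at D14 with 224.4 CPM, and the wide intervals of DLL4, which rests on 22 to 48 UMIs a day.

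In CM-like cells, HES1 was 7.98-fold lower at D21 than at D14, and NOTCH1, NOTCH3, JAG1 and DLL3 were also lower. For NOTCH1 and NOTCH3, only cluster 6 of the D21 clusters had an interval below that of D14. NOTCH4 passed 2-fold downwards too, on too few UMIs to be read as a change. JAG1 had already fallen 3.58-fold from D8 to D14, while JAG2 rose 6.0-fold and stood at 8.40 CPM at D21. NOTCH2 stayed between 21.1 and 27.6 CPM. These cells are those of cluster 5 at D8, of cluster 1 at D14 and of clusters 6 and 18 at D21, and none of these clusters spans the days in number, so class, day and library go together.

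The HES1 level in CM-like cells was 129.7 CPM (121.8 to 138.0) at D8, 192.4 (185.0 to 200.1) at D14 and 24.1 (20.7 to 27.9) at D21, from 1006, 2507 and 175 UMIs. The D21 interval lay far below the other days. After each cell was thinned to 4000 UMIs, 31.5%, 45.0% and 7.98% of CM-like cells had a HES1 UMI, and without thinning 62.4%, 73.4% and 20.2%. HES1 was lower at D21 in all 15 alternatives that gave a value, with log2 ratios from -3.61 to -2.50, the omission of the cells with the highest doublet scores among them. The 2 clusters of D21 differed in level: cluster 6 (486 cells) was at 19.4 CPM (16.3 to 23.1), and cluster 18 (50 cells, median 8172 UMIs) at 88.5 (64.1 to 119.2). Both values lay below the 192.7 CPM (185.2 to 200.4) of the D14 cluster.

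CM-like cells differed in mitochondrial share between days, with a median of 2.82% at D8, 5.33% at D14 and 8.41% at D21. HES1 was therefore also read within ranges of that share, with cells named without a mitochondrial limit, a choice made after seeing the data. Between 5 and 10% mitochondrial UMIs, HES1 was at 180.3 CPM (171.1 to 189.8) in 569 cells of D14 and at 19.1 (15.7 to 23.0) in 421 cells of D21. Between 10 and 20%, it was at 154.9 CPM (139.0 to 172.0) in 165 cells and at 17.7 (15.7 to 19.9) in 1196. In both ranges the D21 interval lay below that of D14. At the lowest range, under 5%, D21 offered 26 cells with 3 HES1 UMIs. CM-like cells of D21 also held UMIs of the 8 hepatic endoderm markers, with a summed level of 2292 CPM against 125.9 at D14, whose part in the HES1 level was not tested.

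Among the ligands in CM-like cells, JAG1 was at 194.8 CPM (185.1 to 204.9), 54.3 (50.4 to 58.5) and 15.1 (12.5 to 18.3), with 52.7%, 20.4% and 5.75% of thinned cells holding a UMI. It was thus lower on each step, by 3.58-fold and 3.59-fold, and the first fall had log2 ratios from -2.07 to -1.13 over the alternatives. JAG2 counted 13, 131 and 61 UMIs, or 1.68 CPM (0.892 to 2.87), 10.1 (8.41 to 11.9) and 8.40 (6.43 to 10.8). The JAG2 intervals of D14 and D21 overlapped, and D8 lay below both. The log2 ratio of JAG2 from D8 to D14 was 2.58, and ran from 1.26 with thinned cells (7 and 34 UMIs) to 4.14 with gated cells (1 and 119 UMIs). The number of CM-like cells at D8 also depended on the setting, with 482 cells here, 962 with 3000 variable genes, 981 with a limit of 1000 genes per cell and 114 with the gate. DLL3 was at 19.98, 17.8 and 3.72 CPM, and fell 4.79-fold (3.21 to 7.42) on the second step. DLL1 (9, 6 and 1 UMIs) and DLL4 (4, 4 and 0 UMIs) were close to the limit of counting in these cells, and 0 DLL4 UMIs in 539 cells allows a share of cells with a UMI of up to 0.557%.

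Of the receptors in CM-like cells, NOTCH3, known from the smooth muscle of vessel walls, was at 11.7, 13.3 and 3.17 CPM and fell 4.19-fold (2.70 to 6.79) from D14 to D21. NOTCH1, the receptor needed for endocardial development, was at 6.96, 8.98 and 3.44 CPM and fell 2.61-fold (1.68 to 4.19) on that step. In cluster 6 of D21, NOTCH1 was at 2.67 CPM (1.58 to 4.22) and NOTCH3 at 2.97 (1.81 to 4.58). In cluster 18, on 7 and 3 UMIs, they were at 14.4 (5.79 to 29.7) and 6.18 (1.27 to 18.0). The cluster 18 intervals overlapped those of the D14 cluster, at 8.88 CPM (7.33 to 10.7) and 13.3 (11.4 to 15.4). NOTCH4, an endothelial receptor, rested on 8, 26 and 3 UMIs. The NOTCH1 call was lost when cells were thinned or chosen by a gate on CM markers instead of clusters, and the NOTCH4 call when cells were thinned. The NOTCH4 UMIs of CM-like cells are so few that they serve as the background for endothelial-like cells further on, so the NOTCH4 calls in CM-like cells are not read as changes of expression.

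Counted together, 6 of the 10 members passed 2-fold downwards and 0 upwards from D14 to D21 in CM-like cells, where 20.4% and 5.76% of the 13963 genes tested did. The 6 include NOTCH4, whose call is not read as a change, and NOTCH1, whose call was lost in some settings. Only 8 members held enough UMIs to be counted, and their median log2 ratio was -1.96, beside -0.24 over all genes. From D8 to D14 there was 1 upwards (JAG2) and 1 downwards (JAG1), beside 13.6% and 4.04% of 14113 genes. Against the other cells of the same library, CM-like cells were lower for NOTCH1 and NOTCH4 on each day. Those other cells include the endothelial-like cells. That class held 64 of 132 NOTCH4 UMIs at D8, 52 of 188 at D14 and 38 of 85 at D21. It also held 71 of 602 NOTCH1 UMIs at D8 and 20 of 29 DLL4 UMIs at D21. Apart from that class, every group's NOTCH4 interval at D8 and D14 overlapped that of CM-like cells. The comparison was not made without endothelial-like cells. At D8 NOTCH1, NOTCH4 and DLL1 passed 2-fold downwards (10.5% of all genes did, and 6.57% upwards), and at D14 the same 3, with JAG2 higher (13.0% lower and 9.93% higher over all genes). At D21, JAG2 was higher, at 8.40 against 2.33 CPM (12.1% of all genes passed upwards), and HES1, NOTCH1, NOTCH3, NOTCH4 and DLL4 were lower (20.7% downwards). HES1 in that comparison stood at 24.1 CPM in CM-like cells and 123.9 in the other cells of D21.

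Dividing cells moved in the same direction for HES1, with 179.0 CPM at D8, 247.8 at D14 and 68.6 at D21, a fall of 3.61-fold (3.13 to 4.18) on the second step. In cluster 15, the dividing cluster led by ACTA1 and NPPA that held 68 cells of D14 and 34 of D21, HES1 was at 233.1 CPM (207.3 to 261.1) and 49.7 (33.5 to 71.0). The dividing cells of D8 were those of cluster 9, 362 of the 454 at D14 were of cluster 10, and 135 of the 173 at D21 of cluster 14, so these values also compare different clusters. JAG1 in dividing cells went from 173.9 to 58.9 and 20.5 CPM, and DLL3 from 7.24 CPM at D14 to 1.95 at D21. On that step 3 members passed downwards in dividing cells (HES1, JAG1 and DLL3) and none upwards, where 11.8% and 5.38% of all genes did. From D8 to D14, NOTCH4 (10 and 29 UMIs) and JAG2 (6 and 35 UMIs) passed upwards and JAG1 downwards, beside 9.53% and 3.14% of all genes. Against the other cells of a library, no member passed upwards in dividing cells, where 3.40%, 4.74% and 6.48% of all genes did at D8, D14 and D21. Downwards, there were NOTCH4, DLL1 and DLL4 at D8 (5.05% of all genes), DLL1 and DLL4 at D14 (7.96%) and none at D21 (8.60%). Endothelial-like cells are among the other cells here. Apart from them, every group's interval overlapped that of dividing cells for NOTCH4 at D8 (1.42 CPM, 0.682 to 2.62) and for DLL4 at D8 and D14.

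**Figure D2:**
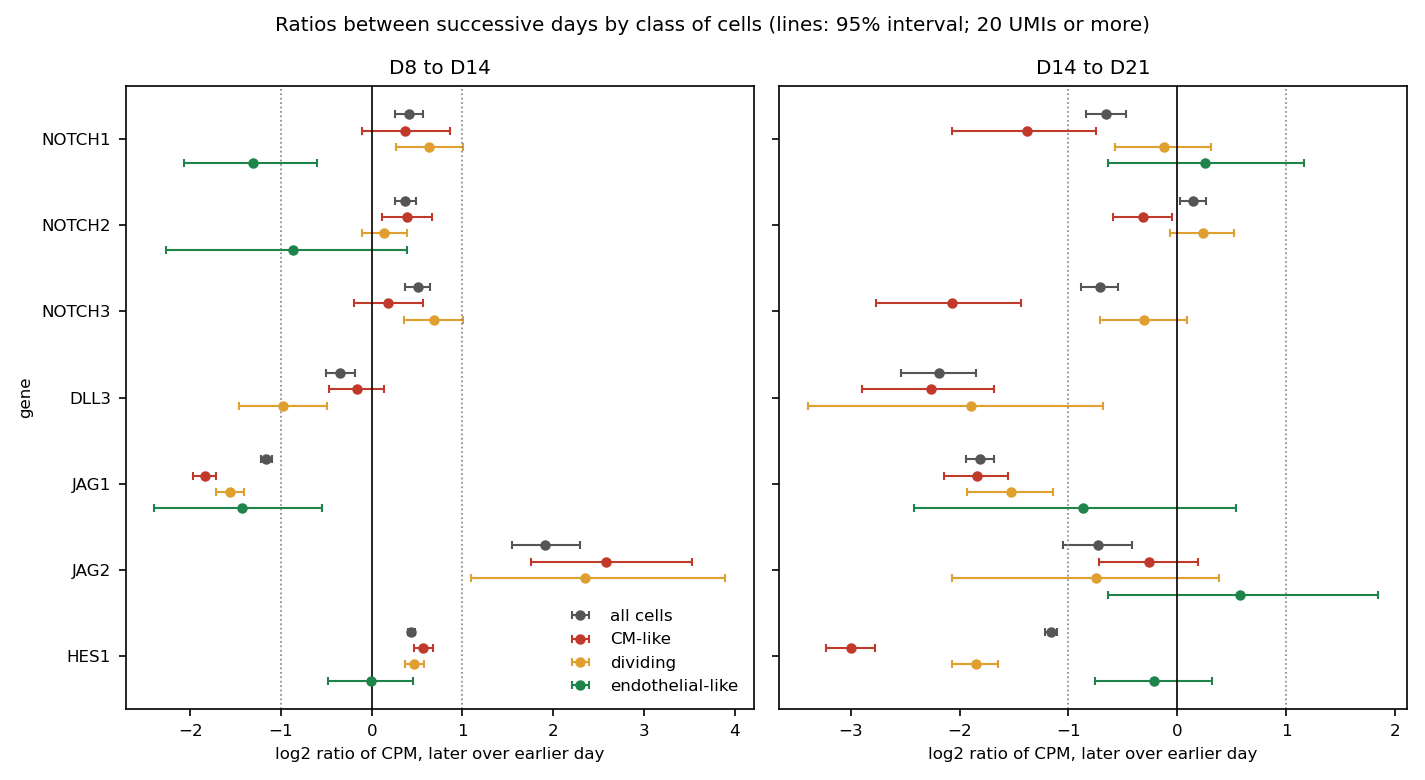
Log2 ratio of CPM between successive days (left D8 to D14, right D14 to D21) for 7 members in all cells, CM-like, dividing and endothelial-like cells, with the exact 95% interval of each ratio; ratios with fewer than 20 UMIs in both days together are left out and dotted lines mark 2-fold. HES1 from D14 to D21 lay at -3.00 in CM-like cells, -1.85 in dividing cells and -0.22 in endothelial-like cells.

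The endothelial-like cells carried the highest NOTCH4 and DLL4 levels of any group on each day, with intervals apart from those of every other group. NOTCH1 and JAG2 were also higher in them than in the other cells on each day, and JAG1 was lower at D8 and D14. HES1 was not higher. The cells are 1.81%, 1.48% and 1.95% of the kept cells, so each of these levels rests on 38 to 53 cells of 1 library.

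NOTCH4 was at 76.5 CPM (58.9 to 97.7) at D8, 81.0 (60.5 to 106.2) at D14 and 64.8 (45.9 to 89.0) at D21 in endothelial-like cells, against 1.48, 2.74 and 1.55 in the other cells. The ratios were 51.7-fold, 29.5-fold and 41.8-fold, and the 3 days overlapped. These cells held 64 of the 132 NOTCH4 UMIs of D8, 52 of 188 at D14 and 38 of 85 at D21. At 4000 UMIs per cell, 27.1%, 15.1% and 15.8% of endothelial-like cells had a NOTCH4 UMI, and 41.7%, 35.8% and 47.4% before thinning. CM-like cells, which should lack the gene, gave 0.622%, 1.02% and 0.371% after thinning, from median depths of 14389, 12260 and 12685 UMIs beside 15362, 11280 and 13934 in endothelial-like cells.

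DLL4 was at 35.8 CPM (24.2 to 51.2), 24.9 (14.2 to 40.5) and 34.1 (20.8 to 52.7) in endothelial-like cells and at 0.392, 0.121 and 0.297 in the others. They held 30 of 48, 16 of 22 and 20 of 29 DLL4 UMIs, and the 3 days again overlapped. After thinning, 6.25%, 13.2% and 7.89% of them had a DLL4 UMI, against 0.415%, 0.204% and 0% of CM-like cells. Endoderm classes held more DLL4 than CM-like cells. Hepatic endoderm-like cells held 8 of the 29 UMIs of D21, at 1.06 CPM (0.460 to 2.10). Early endoderm-like cells held 7 of the 48 of D8, at 1.06 CPM (0.427 to 2.19), and 2 of the 22 of D14. Thinned counts of DLL4, in all cells of a library together, no longer reached 20 UMIs on any day.

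NOTCH1 in endothelial-like cells was at 84.8 CPM (66.3 to 107.0) at D8, 34.3 (21.5 to 51.9) at D14 and 40.9 (26.2 to 60.9) at D21, beside 11.6, 16.9 and 10.3 in the other cells. D8 thus lay above the later days. The ratio to the other cells was 7.34-fold, 2.03-fold and 3.98-fold, and the D14 value, at the edge of 2-fold, was no longer called in 6 of 16 alternatives. JAG2 was at 9.56 CPM (4.13 to 18.8), 17.1 (8.55 to 30.6) and 25.6 (14.3 to 42.2), from 8, 11 and 15 UMIs, against 1.5, 6.07 and 3.33 elsewhere. The JAG2 intervals overlap between days.

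Of the 10 members, 4 were past 2-fold upwards in endothelial-like cells on each day, and on each day they were NOTCH1, NOTCH4, DLL4 and JAG2. Over all genes, 10.1% of 15872 were past it at D8, 5.93% of 16332 at D14 and 8.23% of 14715 at D21. Downwards, there was JAG1 at D8 (58.5 against 153.3 CPM; 8.52% of all genes), JAG1, NOTCH2, HES1 and DLL3 at D14 (11.7%; HES1 and DLL3 only in 11 and 12 of 16 alternatives) and NOTCH2 at D21 (8.99%). NOTCH2 counted 19, 8 and 2 UMIs in these cells, or 22.7, 12.5 and 3.41 CPM, beside 22.5, 29.2 and 32.5 in the other cells. HES1 was at 109.9 CPM (88.6 to 134.8), 109.0 (85.0 to 137.7) and 93.8 (70.7 to 122.1) in endothelial-like cells, with every interval overlapping the others. Between D14 and D21 HES1 thus had a log2 ratio of -0.22 (-0.75 to 0.31) in endothelial-like cells and of -3.00 (-3.23 to -2.78) in CM-like cells; the difference between the classes was not tested, since each day is 1 library.

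Between days within endothelial-like cells, NOTCH1 (log2 ratio -1.31) and JAG1 (-1.43) passed 2-fold downwards from D8 to D14, where 5.87% of 7040 genes did, and none passed upwards (3.48%). From D14 to D21 no member passed in either direction, beside 11.7% upwards and 9.18% downwards of 6353 genes. Only 6 of the 10 members had the 20 UMIs asked for in these cells on either step.

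In single cells, NOTCH4 and its possible ligand partners were read at full depth over the 139 endothelial-like cells of all days, as a description. Both DLL4 and NOTCH4 had a UMI in 30 cells, of 42 with DLL4 and 57 with NOTCH4. DLL4 and NOTCH1 were found together in 25 cells, NOTCH1 and NOTCH4 in 32, and JAG2 and NOTCH4 in 20 of the 32 cells with JAG2. Deeper cells hold more of every gene, and at 4000 UMIs per cell only 6 cells held both DLL4 and NOTCH4.

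The endothelial-like cells also held UMIs of other classes. All 8 endothelial markers were present on each day, with a summed level of 2530, 2501 and 3371 CPM, against 92.8, 150.4 and 29.6 in CM-like cells. The summed level of the 8 CM markers in endothelial-like cells was 100.4, 531.0 and 2736 CPM, with SMPX at 0 at D8, and that of the 8 hepatic endoderm markers 5.97, 20.2 and 1264 CPM, with 6 at 0 at D8 (SERPINA1, FGB, FGA, APOB, AFP and RBP4), 5 at D14 (SERPINA1, FGB, FGA, APOB and RBP4) and 0 at D21. The part of these transcripts in the D21 levels of the members was not tested.

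**Figure D3:**
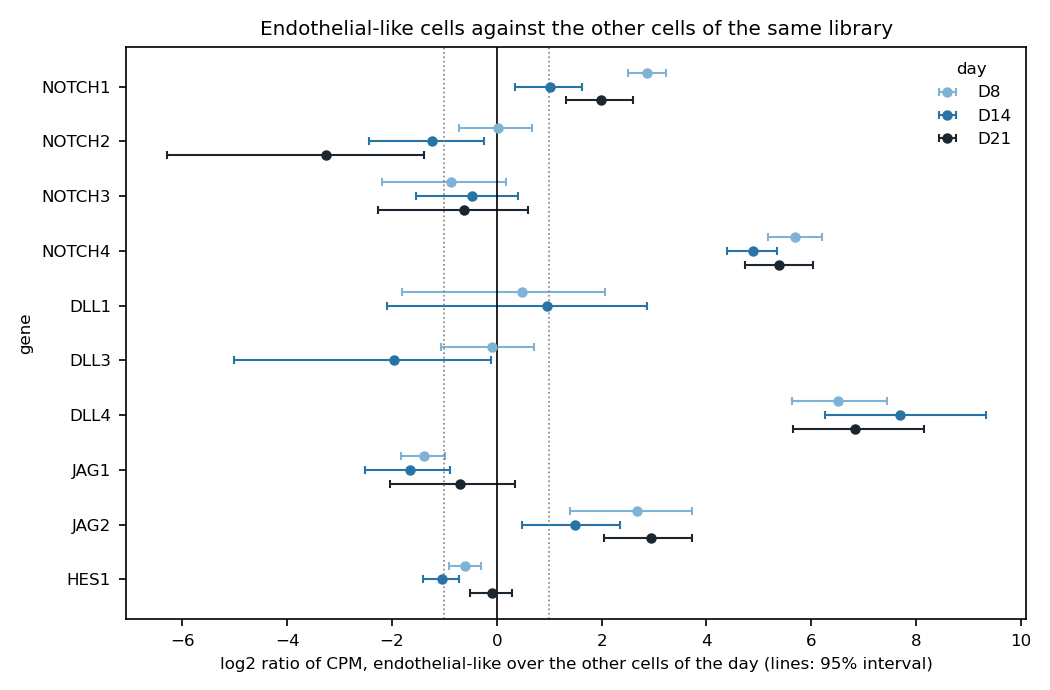
Log2 ratio of CPM in endothelial-like cells over the other cells of the same library, for each member with 20 UMIs or more and each day, with the exact 95% interval; dotted lines mark 2-fold, and DLL3 at D21, with 0 UMIs in endothelial-like cells, is not drawn. NOTCH4 (4.88 to 5.69) and DLL4 (6.52 to 7.69) stood apart from the other members on each day, and HES1 lay between -1.05 and -0.10.

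Of the groups other than CM-like and endothelial-like cells, hepatic endoderm-like cells at D21 had the highest HES1 level of that day, at 222.4 CPM (211.9 to 233.3) with 44.8% of thinned cells holding a UMI. They made up 15.7% of the kept cells of D21 and 53.8% of its HES1 UMIs. HES1 was 3.63-fold (3.38 to 3.90) above the other cells, the only member past 2-fold upwards there (11.1% of all genes), while NOTCH1, NOTCH3, NOTCH4, DLL3 and JAG2 were lower (34.0% of all genes, with a median log2 ratio of -0.60). Early endoderm-like cells stood at 225.5 CPM of HES1 at D8 and 241.9 at D14, and both intervals overlapped that of hepatic endoderm-like cells of D21. In early endoderm-like cells JAG1 was 41.0 CPM at D8, against 169.7 in the other cells, and 25.1 at D14, against 72.3. With JAG1, NOTCH1 and NOTCH4 passed downwards at D8 (9.09% of all genes) and JAG1 alone at D14 (14.6%), with none upwards (5.94% and 6.48%). NOTCH4 stood there at 1.52 CPM (0.728 to 2.79) at D8, an interval that overlapped that of every group but endothelial-like cells. Endothelial-like cells held 64 of the 132 NOTCH4 UMIs of D8 and are among the other cells of the comparison. From D8 to D14 in early endoderm-like cells, only DLL1 passed, downwards, from 26 to 8 UMIs (4.58% of all genes, and 7.71% upwards).

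Fibroblast-like cells at D21 were higher for NOTCH1, at 17.5 CPM (15.1 to 20.1) against 7.12 in the other cells, and for NOTCH3, at 22.6 (19.9 to 25.6) against 7.67. Neither level was particular to them. Dividing cells of D21 stood at 19.5 CPM (14.9 to 25.1) for NOTCH1 and 22.8 (17.7 to 28.7) for NOTCH3. Within that class, cluster 14 (135 cells) was at 23.2 CPM for NOTCH1 and 27.7 for NOTCH3. Cluster 15 (34 cells) was at 4.97 and 3.31 CPM, on 3 and 2 UMIs. In naming, the fibroblast list came second for cluster 14, and the CM list for cluster 15, which was judged on its D14 cells. The intervals of cluster 17 overlapped those of fibroblast-like cells for both genes, and endothelial-like cells were higher for NOTCH1, at 40.9 CPM. Cluster 17 held 23481 CPM of the summed CM markers and 2368 of the fibroblast markers. The unnamed cells of D21 had a median doublet score of 0.187, beside 0.0384 in fibroblast-like cells. They numbered 62, and 6 with the highest doublet scores left out. Whether cluster 17 holds doublets was not tested. Fibroblast-like cells held 62.7% of the NOTCH3 UMIs and 58.3% of the NOTCH1 UMIs of D21, being 42.5% of the cells. JAG2 (23 UMIs) and DLL4 (1 UMI) were lower in them, and 20 of the 29 DLL4 UMIs of D21 lay in endothelial-like cells. These calls are 2 of 10 members upwards and 2 downwards, beside 11.2% and 16.0% of all genes. JAG1 (26.8 against 15.1 CPM) and NOTCH2 (39.6 against 27.6) were higher by less than 2-fold.

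In the clusters without a name, JAG1 at D8 was as high in cluster 2 (191.5 CPM, led by EBF2, PGF and HAND1) and cluster 8 (193.6, led by NPPB and ATF3) as in CM-like cells (194.8), with overlapping intervals, and lower in cluster 12 (58.9, led by SFRP2, POU5F1 and SOX2). At D14 cluster 0 (led by CTNNA2, MFAP4 and GAS1) had the highest JAG1 (115.7 CPM, 109.8 to 121.7) and the highest HES1 (255.2, 246.5 to 264.2), though its HES1 interval overlapped those of dividing and early endoderm-like cells. DLL1 was highest in cluster 12, at 7.85 CPM (5.61 to 10.7) at D8 and 8.47 (4.74 to 14.0) at D14, from 40 and 15 UMIs, with intervals that overlapped those of early endoderm-like cells at D8 and of endothelial-like cells on both days, among others. That cluster also had the highest NOTCH3 level of D14, 39.0 CPM (30.3 to 49.3), whose interval overlapped those of dividing (28.1) and early endoderm-like cells (27.8). NOTCH2 was highest in dividing cells on each day, at 35.4, 39.1 and 45.8 CPM, and only at D8 did its interval lie apart from the next group's.

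**Figure D4:**
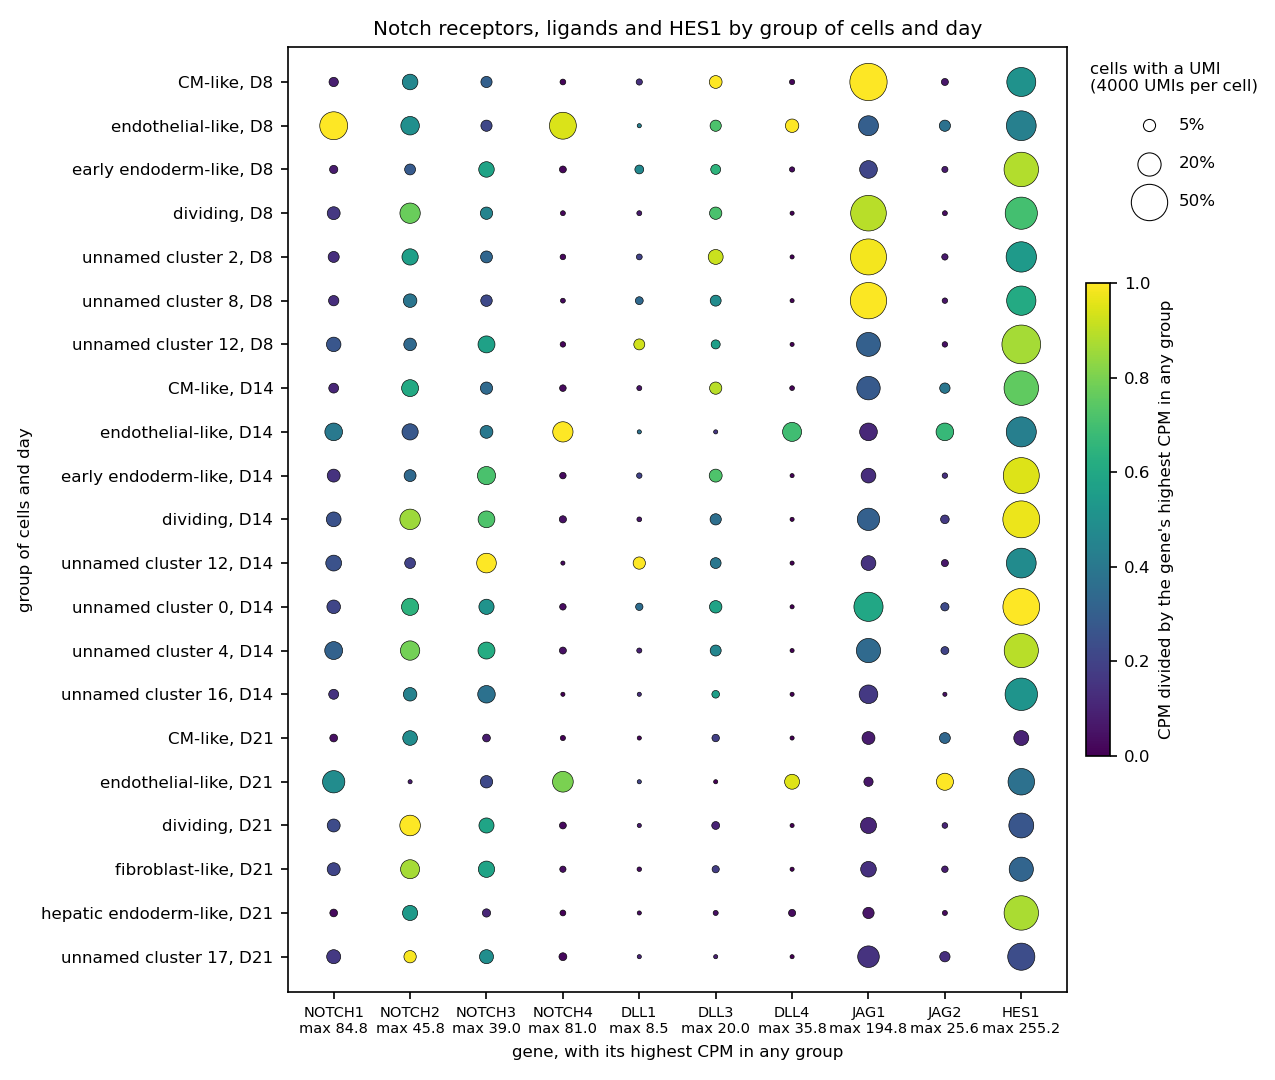
Members by group of cells and day: colour is the CPM divided by the gene's highest CPM in any group (given under its name), and area is the share of cells with a UMI after thinning to 4000 UMIs. NOTCH4 and DLL4 were highest in the endothelial-like rows of each day, JAG1 was highest in the D8 rows of CM-like cells and clusters 2 and 8, and HES1 was low in CM-like cells of D21, at 24.1 CPM.

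The other genes of the pathway were read from a list of 43 that holds further targets and ligands, ligand-activating enzymes, receptor glycosylation and cleavage genes, the nuclear complex, and inhibitors. In CM-like cells from D14 to D21, 2 of the 35 tested passed 2-fold upwards (HEY2 and DLK1) and 6 downwards (RBPJ, MAML2, MAML3, HEY1, NEURL1 and FURIN), beside 5.76% and 20.4% of all genes, so that the list's counts were near those of all genes. The list's median log2 ratio was -0.41, beside -0.24 for all genes. RBPJ, which carries the complex on DNA, went from 165.3 to 62.1 CPM, and the coactivators MAML3 and MAML2 from 20.7 to 5.92 and from 8.06 to 3.72. HEY1, a target known from atrial muscle, went from 43.1 CPM at D8 to 20.8 at D14 and 9.09 at D21. HEY2, a target and a marker of compact ventricular muscle whose start region is printed beside that of HES1, was at 4.64, 7.22 and 84.7 CPM, and so rose from D14 to D21 where HES1 fell. DLK1, a ligand-like protein, went from 40.8 to 95.2 CPM. From D8 to D14 in CM-like cells, 4 of 36 rose (NEURL1B, DLK2, NRARP and FURIN) and 2 fell (HEY1 and DTX4), again near the shares of all genes (13.6% and 4.04%). Of the other targets in CM-like cells, HES4 was at 49.4, 97.9 and 73.7 CPM, HES5 at 0 on each day, and HEYL (1, 0 and 2 UMIs) and NRARP (1, 20 and 9 UMIs) near 0.

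In endothelial-like cells, 7 of 41 list genes passed upwards against the other cells at D8 (HES4, HEY2, LFNG, MFNG, APH1A, FURIN and NUMBL), 3 of 41 at D14 (HEY2, LFNG and MFNG) and 7 of 37 at D21 (HEY1, NRARP, MFNG, APH1A, PSEN2, ADAM10 and DTX2). Over all genes 10.1%, 5.93% and 8.23% passed upwards, and the list's median log2 ratio was 0.53, -0.13 and 0.17, beside -0.03, -0.22 and 0.07 for all genes. DLK1 was lower on each day, with NEURL1B and PSENEN also lower at D14. Over all genes, 8.52%, 11.7% and 8.99% passed downwards at D8, D14 and D21. HEY2 was at 181.6 CPM at D8 and 250.7 at D14, against 13.4 and 22.2 in the other cells, and at 25.6 at D21, against 31.4. HEY1 was at 124.3, 87.2 and 107.5 CPM, and passed 2-fold only at D21, when the other cells stood at 24.7. MFNG, a glycosyltransferase that tunes which ligand a receptor answers to, was past 2-fold on each day, on 5, 6 and 15 UMIs. Between days, HES4 fell from 243.8 CPM at D8 to 85.6 at D14, a step on which 5.87% of all genes passed downwards. Between D14 and D21, HEY2 fell and NCSTN, DLK1 and MFNG rose, of 22 tested, beside 9.18% downwards and 11.7% upwards of all genes.

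Over all cells, 4 of 42 list genes rose from D8 to D14 (HEYL, PSEN2, DLK2 and RFNG) and 2 fell (DNER and LFNG), beside 13.2% and 4.61% of all genes. Between D14 and D21, 1 of 41 rose, DLK1 from 476.8 to 1977 CPM, and 7 fell, among them RBPJ (148.5 to 59.7), HEY1 (58.5 to 26.3) and HES4 (136.1 to 66.2), with HES5, MAML3, DLK2 and NEURL1, beside 8.36% and 19.5% of all genes. HES4, whose log2 ratio was -1.04, is close to 2-fold. In fibroblast-like cells at D21, HEYL (9.09 against 1.63 CPM) and HEY1 (43.5 against 16.5) were higher than in the other cells, with DLK1, MAML2 and NUMBL. HEY2 and MFNG were lower in them. In that comparison 11.2% of all genes passed upwards and 16.0% downwards.

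Likeness of pattern was read as Pearson's r of log2(CPM + 10) over 24 groups (cluster by day, with at least 30 cells), against 9694 other genes that reached 20 CPM in a group. The groups share libraries and the values are descriptions. NOTCH4, DLL4 and JAG2 reached 20 CPM in endothelial-like groups alone, and with 10 CPM added such a gene has a high r with any gene held to those groups, so nothing is read from their likeness. The genes that stood first were TIE1, MMRN2 and EXOC3L1 for NOTCH4, GPR4, CDH5 and PCDH12 for DLL4, and RPS6KA2, RASGRP3 and PGS1 for JAG2. For the other members the highest r lay between 0.80 and 0.90: NOTCH1 with ELK3 (0.88), NOTCH3 with LY6E (0.90) and BMP4 (0.90), JAG1 with LRRTM1 (0.89) and HES1 with PTPRF (0.80).

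NOTCH2 was most like NBPF10 (0.89) and ARHGEF40 (0.84), followed by NOTCH2NL (0.81). NOTCH2NL is a partial copy of NOTCH2 and was counted at 14.7, 20.3 and 17.7 CPM over all cells. In the GENCODE v29 transcripts on GRCh38, 91.6% of the 50-base words in the last 500 bases of the short NOTCH2 transcript NOTCH2-207 also occur in NOTCH2NLA, and 0% of those of the full-length NOTCH2-201. Reads from the end of that shorter transcript therefore cannot be placed in 1 of these genes by such words alone. How the counting treated such reads was not examined, and the processing notes name hg19 and not the build of these transcripts. The levels of NOTCH2 and NOTCH2NL are uncertain to that extent.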

How the data were processed

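Dissociated CCOs of D8, D14 and D21 were profiled with Chromium 3′ v2 chemistry. In 1 table of all days the authors deposited UMI counts by gene and barcode, unfiltered and not normalized, in which only whole numbers were found. The submitters' processing notes name Cell Ranger, the build hg19 and Seurat 3.2.1. Each barcode's day was read from the ending of its column name.

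Cells and genes were filtered with the limits of the study's methods (more than 2000 and fewer than 7500 genes, under 10% UMIs of the 13 mitochondrial genes, and a UMI in at least 10 barcodes), which left 8188 of 17327 barcodes, with 4007 to 95021 UMIs each. Clusters came from Seurat 5.3.0 (R 4.3.3), with log-normalization to 10000, 2000 variable genes less the 8 Notch genes among them (1992 used), 20 principal components, a resolution of 0.8 and no integration. A name needed 3 or more markers raised 2-fold (10 CPM added) over the rest of the cluster's main day and a lead of 2 markers on any other class, and was withheld where the 10 leading genes favoured another class. No doublet was removed; Scrublet in scanpy 1.11.5 marked 1, 1 and 7 cells, a yield too low for a doublet call.

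Summed counts gave CPM, with Poisson, ratio and Clopper-Pearson 95% intervals (scipy 1.17.1, numpy 2.4.6, pandas 2.3.3, Python 3.11.15). Shares used cells thinned to 4000 UMIs with a fixed seed. The limit for a count of 0 is that of 3 counts. The ratio intervals were run on simulated Poisson counts with known changes. That simulation held no spread between cells or libraries, so it cannot show how the intervals fare with such spread. With 1 library per day no test, p-value or replicate error was computed.

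The members and lists were chosen with earlier results of these data known. The genes named are the 10 members, the listed targets, pathway genes past 2-fold in a comparison, and for each member that reached 20 CPM in a group the 3 genes of most similar pattern. Alternatives were other mitochondrial and gene limits, high doublet scores left out, TMM and median-of-ratios factors, totals without mitochondrial genes, thinned cells, no UMI minimum, a 1.5-fold limit, other resolutions and variable genes, Notch genes kept, and a gate in place of clusters. The imaging, RT-qPCR and EDN1 experiments were not analysed here.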

Additional observations from a re-analysis of the deposited data

Results flagged for a closer look

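HEY2, a listed target outside the 10 members, moved in opposite directions in classes of cells over the same step. From D14 to D21 its log2 ratio was 3.55 in CM-like cells (7.22 to 84.7 CPM) and -3.29 in endothelial-like cells (250.7 to 25.6 CPM, on 161 and 15 UMIs). HES4 did so from D8 to D14, with a log2 ratio of -1.51 in endothelial-like cells (243.8 to 85.6 CPM) and 1.10 in early endoderm-like cells (89.8 to 192.5 CPM). Both are given because the single library of each day put the classes on opposite sides of 2-fold, and the difference between the classes was not tested. No member of the 10 moved past 2-fold in opposite directions in these classes.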

How the results depend on the processing

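With 1 library per day, leaving out a replicate was not possible. No paired analysis was possible because each group is 1 library. Of 64 log2 ratios of members between successive days (all cells and CM-like cells) and between endothelial-like and other cells, none that passed 2-fold changed sign under an alternative that gave a value. Members past 2-fold upwards in endothelial-like cells numbered 4 on each day, and 2 at D14 and 2 at D21 with a mitochondrial limit of 5%, and 2 at D8 and 2 at D14 with cells thinned to 4000 UMIs, where DLL4 fell below the 20 UMIs asked for. With a limit of 1.5-fold, 8 members in place of 5 passed between D14 and D21 over all cells. The share of all genes past 1.5-fold was not computed, so nothing is read from that count about the members. Members with a UMI in at least 10% of endothelial-like cells at D21 numbered 4, 7 without thinning and 1 when 2 UMIs were asked for. Levels by mitochondrial range and by single CM-like cluster were added after seeing the data. Counts in 1 direction moved as well. The 4 members lower in endothelial-like cells at D14 became 1 (JAG1) with thinned cells and 2 with TMM, with median-of-ratios factors, without the highest doublet scores and with the gate. The 1 member higher at D21 than at D14 over all cells (DLL4) became 0 in 5 alternatives. In CM-like cells from D8 to D14, the 1 member higher became 2 at a resolution of 0.4 and with Notch genes kept (NOTCH4 added), and the 1 lower became 2 with a limit of 1000 genes (DLL1 added). A mitochondrial limit of 5% left too few CM-like cells at D21 for a value. Depth limits DLL1 and DLL4, and every endothelial-like level rests on 38 to 53 cells a day. Sequence shared with NOTCH2NL leaves NOTCH2 counts uncertain, and the number of shared reads was not measured.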
